A study of Anas platyrhynchos with 6 samples.

Results

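Of the 6 small RNA libraries of duck duodenum, CR-2 and TB-1 are compared here with the other 4, CR-1, CR-3, TB-2 and TB-3. The split was chosen by the measured RPM of these same libraries, in which CR-2 and TB-1 stood apart, and it cuts across the rearing groups, with 1 library of each on the smaller side. What follows about the split is therefore a description, with no test. The comparison uses the miRNA names with a mean of at least 100 RPM (reads scaled to a library sum of 1000000) over the 6 libraries, which were 246 of 1568 names. Names with identical values in all 6 libraries were kept once, which left 180 distinct profiles of 100 miRNAs in 53 families, 134 of them under a single name and the others under up to 6 names. The names carry miRBase prefixes of many species (gga for chicken, hsa for human), and each profile is called here by the name in the files. The measure throughout is the shift, the log2 ratio of the mean RPM of CR-2 and TB-1 to the mean RPM of the other 4, so that a shift of 1 is a 2-fold higher mean in CR-2 and TB-1.

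All libraries came from domestic ducks (Anas platyrhynchos, Nonghu No. 2) chosen at 90 days of age. CR (cage rearing) ducks were moved to cages and TB (traditional breeding) ducks stayed on the ground for a trial of 10 days, with 3 libraries in each group. RNA came from a washed piece of duodenum wall, while the labels give intestinal epithelial cells as the cell type. In such bulk tissue, fewer cells of a type and less RNA per cell cannot be told apart. The study's text takes RNA from each duck, but the labels do not say that each library is a separate animal, so p-values measure the spread between these libraries.

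MicroRNAs are short RNAs that lower the stability and translation of messenger RNAs. Each is cut from a hairpin precursor with a 5p and a 3p arm, usually with one arm kept in excess, and related miRNAs that share the bases at their start form families. Some are strongly tied to a tissue: miR-143 and miR-145 to smooth muscle, miR-1 and miR-133 to striated muscle, miR-192, miR-194 and miR-215 to the gut epithelium, miR-375 to endocrine cells and miR-122 to the liver. In a library scaled to a fixed sum, a lower share of a few abundant miRNAs leaves a higher share for all the rest.

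The libraries held between 1500905 and 11395209 reads summed over names, and CR-2 (1500905 reads) and TB-1 (5708735 reads) were the 2 shallowest, whose part in the results was not tested. The sums include repeats of reads that matched more than 1 name, so a family spread over many names weighs more than its reads. The lowest count of any of the 180 profiles was 11 reads, and their names took between 97.8% and 99.5% of each library. Since the files carry no molecular identifiers, intervals cover counting error only.

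CR-2 and TB-1 were alike and the other 4 were alike. The RPM of CR-2 and TB-1 lay within 2-fold of each other for 144 of the 180 profiles. Within the other 4, a pair of libraries agreed to 2-fold for between 123 profiles (CR-1 and CR-3) and 174 profiles (CR-1 and TB-2). Between the 2 sides the number was 43 to 55. It was 43 to 51 where libraries of opposite sides came from the same rearing group, and 45 to 55 where they came from different groups.

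Of the 180 profiles, 104 had a shift above 1 and 29 a shift below -1, and the median was 1.86. Among all 447 distinct profiles with at least 10 reads in at least 3 libraries, 56.8% were above 1 and 17.7% below -1, with a median of 1.68, so the 180 resembled the background. In 109 profiles CR-2 and TB-1 both lay above all of the other 4, in 43 both lay below them and in 28 the sides overlapped, beside 57.3% above and 21.5% below among the 447. The shift ran between -4.10 for gga-miR-1b-3p and 9.37 for bta-miR-2898. It had the same sign in CR-2 alone and in TB-1 alone for 164 of the 180.

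These counts depend on the scaling, because a median shift of 1.68 is carried by all profiles together. With TMM factors, which set the bulk of the profiles equal between libraries, the median of the 447 was 0.02. Then 63 profiles lay above 1 and 74 below -1, so the share of higher among those past 2-fold was 46.0%, beside 78.2% on RPM. CR-2 and TB-1 both lay above all of the other 4 in 73 profiles and below them in 79. The order of the profiles hardly moved (Spearman correlation of both shifts 0.998 across the 180, which are not independent). A positive RPM shift turned negative in 31 profiles, 6 of them above 1 on RPM: gga-let-7g-5p, hsa-miR-27a-3p, gga-miR-199-3p, bta-miR-3604, oni-miR-199c and gga-miR-1662. Shifts below are on RPM unless TMM is named, and a profile near 0 is below, and one near 1.68 at, the middle of all profiles.

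**Figure D1:**
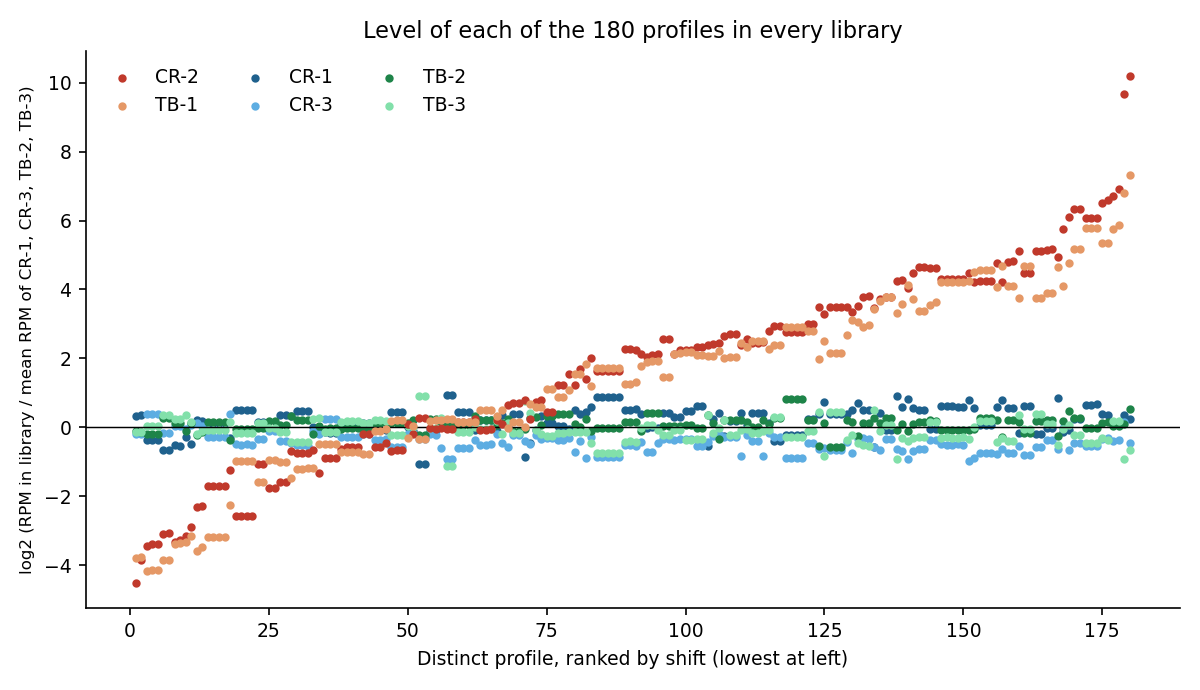
Each of the 180 profiles at its rank by shift (x axis) with the log2 ratio of every library's RPM to the mean of CR-1, CR-3, TB-2 and TB-3 (y axis), 1 point for each library. CR-2 and TB-1 follow the same curve between the lowest shift of -4.10 and the highest of 9.37, while the other 4 stay in a band around 0 across the whole range.

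How a profile entered the set bears on these counts. A mean of 100 RPM was reached on both sides by 127 profiles, of which 64 were above 1 and 16 below -1, with a median of 1.08. Another 40 reached it through CR-2 and TB-1 alone, and 13 through the other 4 alone, and those had to differ. At the threshold, gga-miR-200b-5p (mean 106.0 RPM, shift 4.59), oan-miR-200b-5p (mean 106.0 RPM, shift 4.59) and tgu-miR-142-3p (mean 105.5 RPM, shift -3.41) were just inside. Just outside were gga-miR-30e-3p (mean 98.3 RPM, shift -0.12), mmu-miR-30e-3p (mean 96.7 RPM, shift -0.15) and dre-miR-458-3p (mean 96.7 RPM, shift 0.78).

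The usual composition of the other 4 libraries was narrow. For shares, profiles whose 6 values lay within 10% of a more abundant profile were left out, since such names may share reads, a rule chosen after the values were seen. Names of 1 miRNA that differed by more remained, such as hsa-miR-92a-3p and sha-miR-92a, hsa-let-7f-5p and efu-let-7f, or bfl-miR-375 and dre-miR-375, so shares and ranks may still count some reads more than once. In each of the 4, miR-143, known from smooth muscle, came first, miR-215-5p of the gut epithelium came next, and miR-21, a miRNA of many tissues, followed. miR-143 held 20.4% of CR-2 and 28.1% of TB-1, against 31.9%, 41.4%, 33.1% and 29.0% of CR-1, CR-3, TB-2 and TB-3. It led in all 6 libraries, which are labelled as intestinal epithelial cells.

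The 5 most abundant profiles took 40.7% of CR-2 and 48.5% of TB-1, against 76.8%, 83.2%, 77.5% and 80.8% of CR-1, CR-3, TB-2 and TB-3. To reach 90% of the library, 53 and 44 profiles were needed in CR-2 and TB-1, against 19, 14, 18 and 17 in those 4. The Shannon index, which grows as reads spread more evenly over miRNAs, was 5.44 and 4.99 bits in CR-2 and TB-1, against 3.60, 3.09, 3.53 and 3.37 bits. CR-2 and TB-1 thus spread their reads over more miRNAs, and CR-3 was the narrowest library.

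The ranking below miR-143 differed between the sides. miR-215-5p held 2.76% of CR-2 and TB-1 on average (rank 7), against 22.6% in the other 4 (rank 2). miR-101-3p, found in many tissues, stood at rank 67 in CR-2 and TB-1, against rank 5 in the other 4. In the opposite direction miR-92a-3p, of the miR-17 to miR-92a cluster, held 2.75% (rank 8), against 0.0306% (rank 74). miR-181a-5p, best known from T cells, stood at rank 10 against rank 70, and miR-30c-5p at rank 6 against rank 45.

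**Figure D2:**
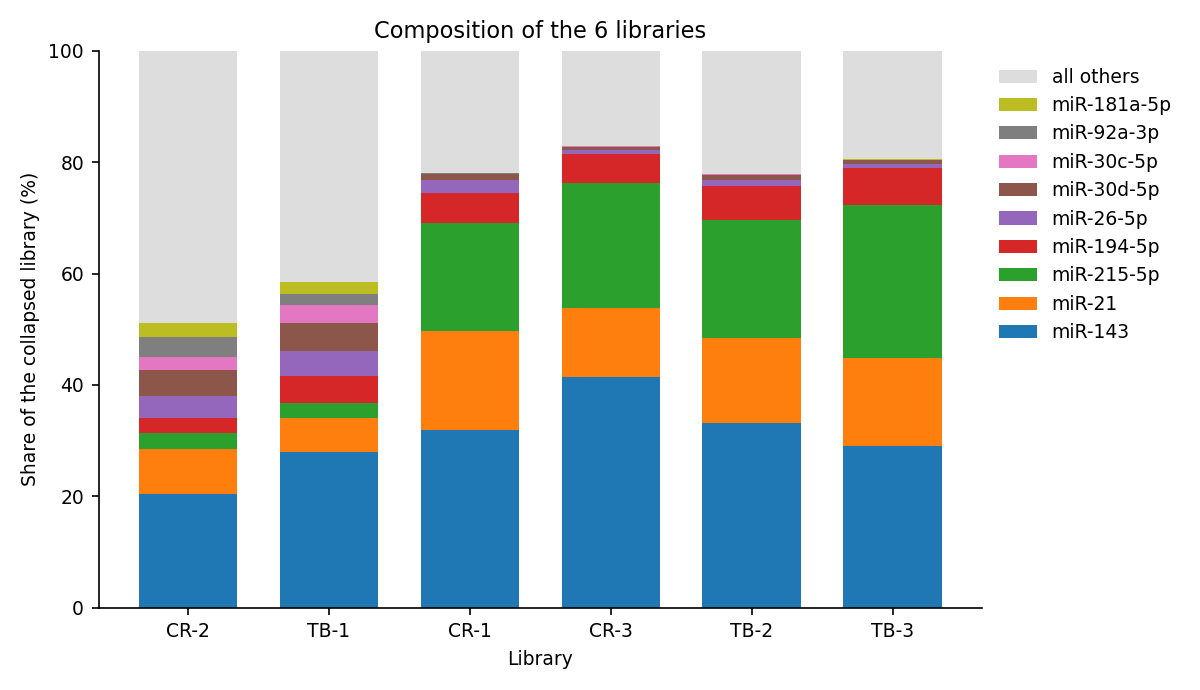
Share of each library (y axis, %) held by 9 miRNAs and by all others, 1 bar for each library, after profiles within 10% of a more abundant one were left out. miR-143, miR-21 and miR-215-5p fill most of CR-1, CR-3, TB-2 and TB-3, while in CR-2 and TB-1 the grey part for all others is far larger and miR-26-5p, miR-30d-5p, miR-30c-5p, miR-92a-3p and miR-181a-5p become visible.

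The miRNAs of the gut epithelium were lower in CR-2 and TB-1, to different degrees. hsa-miR-215-5p had 12535 and 11199.5 RPM in CR-2 and TB-1, against 91467, 106975, 103047 and 143915 RPM in CR-1, CR-3, TB-2 and TB-3, a shift of -3.23. mmu-miR-194-5p, from the same transcripts in vertebrates, had 11480.4 and 20685 RPM in CR-2 and TB-1, against 25632, 25032, 29756 and 34853 RPM in CR-1, CR-3, TB-2 and TB-3, a shift of -0.84. dre-miR-192, a close relative of miR-215, had 275 and 136 RPM in CR-2 and TB-1, against 516, 843, 495 and 715 RPM in CR-1, CR-3, TB-2 and TB-3, a shift of -1.64. All 3 of these names were lower in both libraries than in each of the other 4, and 2 of the 3 passed 2-fold, the exception being miR-194. Among the 447, 21.5% were lower in both and 17.7% had a shift below -1. mmu-miR-194-5p is the most abundant of 6 miR-194 profiles, and the others did not share its order: for ola-miR-194-5p (-0.31), dre-miR-194a (-0.31), bta-miR-194b (-0.23) and tgu-miR-194-3p (0.36) the sides overlapped, and bta-miR-194b-3p (0.28) was higher in both libraries.

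miRNAs of epithelium in general did not share this direction. ccr-miR-200a had 3544 and 5278 RPM in CR-2 and TB-1, against 4311, 2611, 4279 and 3586 RPM in CR-1, CR-3, TB-2 and TB-3, and the sides overlapped. dre-miR-141-3p had 970.1 and 732 RPM in CR-2 and TB-1, against 908, 788, 978 and 923 RPM in CR-1, CR-3, TB-2 and TB-3, also with overlap. These 2 members of the miR-200 family, which hold cells in an epithelial state, were level on RPM, with shifts of 0.25 and -0.08 (-1.34 and -1.83 with TMM).

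Other members of that family were higher. dre-miR-200c-3p had 2217 and 1914 RPM in CR-2 and TB-1, against 313, 132, 245 and 189 RPM in CR-1, CR-3, TB-2 and TB-3, a shift of 3.23. sha-miR-200b had 6615 and 8991 RPM in CR-2 and TB-1, against 3454, 1366, 2972 and 2300.3 RPM in CR-1, CR-3, TB-2 and TB-3, a shift of 1.63 (0.05 with TMM). xla-miR-429 had 1085 and 858 RPM in CR-2 and TB-1, against 330.5, 187, 233 and 248 RPM in CR-1, CR-3, TB-2 and TB-3, a shift of 1.96 (0.24 with TMM). In vertebrates miR-200c and miR-141 lie side by side in the genome, as do miR-200b, miR-200a and miR-429, so neighbours differed in shift by 3.31 and 1.71. Of the 6 tested miRNAs of epithelium in general, 4 were above 1 and 0 below -1, beside 56.8% and 17.7% among the 447, and 1 of the 4 was miR-183, which stayed under 10 RPM. With TMM, 1 of the 6 was above 1 and 2 below -1.

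The smooth muscle miRNAs differed in sign. ola-miR-143 had 90227 and 117332 RPM in CR-2 and TB-1, against 150207, 197456, 161289 and 151677 RPM in CR-1, CR-3, TB-2 and TB-3, a shift of -0.67. Its genomic neighbour mmu-miR-145a-5p had 941 and 1490.00 RPM in CR-2 and TB-1, against 762, 559, 867 and 577 RPM in CR-1, CR-3, TB-2 and TB-3, a shift of 0.81. Neither passed 2-fold, although both libraries lay below the other 4 for this miR-143 name and above them for this miR-145 name. With TMM both names were lower (-2.35 and -0.77). For hsa-miR-145-3p the sides overlapped, with a shift of 0.11 (-1.45 with TMM).

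miR-1 and miR-133, made from shared transcripts in striated muscle, went in opposite directions. mmu-miR-1b-5p had 254 and 269 RPM in CR-2 and TB-1, against 4662, 3180.3, 3325 and 3338 RPM in CR-1, CR-3, TB-2 and TB-3, a shift of -3.79. tgu-miR-133-3p had 822 and 907 RPM in CR-2 and TB-1, against 103, 64.6, 214 and 99.95 RPM in CR-1, CR-3, TB-2 and TB-3, a shift of 2.85. Neither miRNA overlapped between the sides, and both kept their sign with TMM (-5.47 and 1.23). The other markers of striated muscle were rare. gga-miR-499-5p had 1.33 and 2.45 RPM in CR-2 and TB-1, against 6.66 to 14.4 RPM in the other 4. mmu-miR-206-3p had 38 and 59 reads in CR-2 and TB-1, against 0, 5, 0 and 0 reads in CR-1, CR-3, TB-2 and TB-3. Within the list, 2 of the 3 tested miRNAs were below -1 and 1 was above 1, beside 17.7% and 56.8% among the 447.

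Endocrine and pancreatic miRNAs were split as well. bfl-miR-375, of enteroendocrine and islet cells, had 7309.6 and 3716 RPM in CR-2 and TB-1, against 291, 233, 338 and 332 RPM in CR-1, CR-3, TB-2 and TB-3, a shift of 4.21. gga-miR-7, which marks the same cells, had 289 and 862 RPM in CR-2 and TB-1, against 2428, 1212, 1669 and 1521 RPM in CR-1, CR-3, TB-2 and TB-3, a shift of -1.57. The first was higher in both libraries than in any of the other 4 and the second lower, and for miR-7 the size rested on CR-2, with -2.56 for CR-2 alone and -0.99 for TB-1 alone. Of the exocrine pancreas, mmu-miR-216b-5p (10.7 and 7.88 RPM in CR-2 and TB-1, against 0.107 to 0.965 RPM) and tgu-miR-217-5p (14.7 and 44.3 RPM, against 0.998 to 3.77 RPM) were higher at low levels.

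The liver miRNA miR-122 was a matter of CR-2. oha-miR-122-5p had 328 and 7.36 RPM in CR-2 and TB-1, against 3.16, 5.10, 2.998 and 1.55 RPM in CR-1, CR-3, TB-2 and TB-3. The 95% Wilson interval was 300.1 to 358.1 RPM in CR-2 and 5.44 to 9.94 RPM in TB-1, so CR-2 stood far above the other 5 libraries. The shift of 5.71 became 1.20 without CR-2. oan-miR-205-5p, of stratified epithelium, was low but higher in both, with 40.0 and 46.2 RPM in CR-2 and TB-1, against 1.76, 2.30, 2.14 and 2.88 RPM in CR-1, CR-3, TB-2 and TB-3. The other miRNA of that list, gga-miR-203a, was too rare to be among the 447. It had 1.33 and 0.526 RPM in CR-2 and TB-1, against 0.107 to 3.25 RPM, with overlap and a shift of -0.92.

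Blood cell and vessel miRNAs showed no common direction on RPM, while with TMM most of those named were lower. gga-miR-142-5p, made in leukocytes, had 87.9 and 31.9 RPM in CR-2 and TB-1, against 316, 237, 321 and 271 RPM in CR-1, CR-3, TB-2 and TB-3, a shift of -2.26. ssc-miR-155-5p, also of leukocytes, had 49.3 and 24.7 RPM in CR-2 and TB-1, against 9.92, 6.90, 9.85 and 9.98 RPM in CR-1, CR-3, TB-2 and TB-3, a shift of 2.01. xtr-miR-146b, the most abundant of that list, had a shift of 0.20 with overlapping sides. On RPM the summed level of the leukocyte list was therefore not set apart, with a highest value of 6447 RPM in CR-2 and TB-1, against 4346 to 7033 RPM in the other 4. With TMM the shifts of gga-miR-142-5p, ssc-miR-155-5p and xtr-miR-146b were -4.13, 0.20 and -1.49.

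hsa-miR-451a of red blood cells had 46.0 and 24.2 RPM in CR-2 and TB-1, against 53.4, 29.5, 19.4 and 37.7 RPM in CR-1, CR-3, TB-2 and TB-3, with overlap. Its neighbour cpi-miR-144-5p had 0.666 RPM in CR-2 and was listed at 0 in TB-1, against 1.82 to 5.10 RPM in the other 4. Of endothelium, oha-miR-126-5p, a name whose values are nearly those of miR-126a-3p of other species, had 639 and 469 RPM in CR-2 and TB-1, against 1467, 736, 1243 and 794 RPM in CR-1, CR-3, TB-2 and TB-3, a shift of -0.94. With TMM the shifts of hsa-miR-451a, cpi-miR-144-5p and oha-miR-126-5p were -1.81, -5.28 and -2.65. That of cpi-miR-144-5p rests on 1 read in CR-2 and 0 reads in TB-1, so its size is uncertain. In the mesenchyme the most abundant names of the neighbours miR-199 and miR-214 parted, but they are of different arms. mmu-miR-199a-5p had 451 and 538 RPM in CR-2 and TB-1, against 500.2, 304, 483 and 555 RPM in CR-1, CR-3, TB-2 and TB-3, with overlap, while cgr-miR-214-3p had 1518 and 671 RPM in CR-2 and TB-1, against 22.2, 13.6, 22.8 and 16.2 RPM in CR-1, CR-3, TB-2 and TB-3, a shift of 5.87. On the other arms, gga-miR-199-3p was higher in both libraries, with a shift of 1.08 (-0.64 with TMM). The rare hsa-miR-214-5p had a shift of 1.94 (0.28 with TMM). dme-miR-9a-5p of neurons had a shift of -0.23, with overlap. The listed miR-124, miR-182, miR-183, miR-203, miR-216a and miR-96 stayed below 10 RPM in every library. miR-208, miR-223, miR-150 and miR-486 were not among the 1568 names. The leukocyte list therefore rests on 3 of its 5 miRNAs and the erythroid list on 2 of 3.

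**Figure D3:**
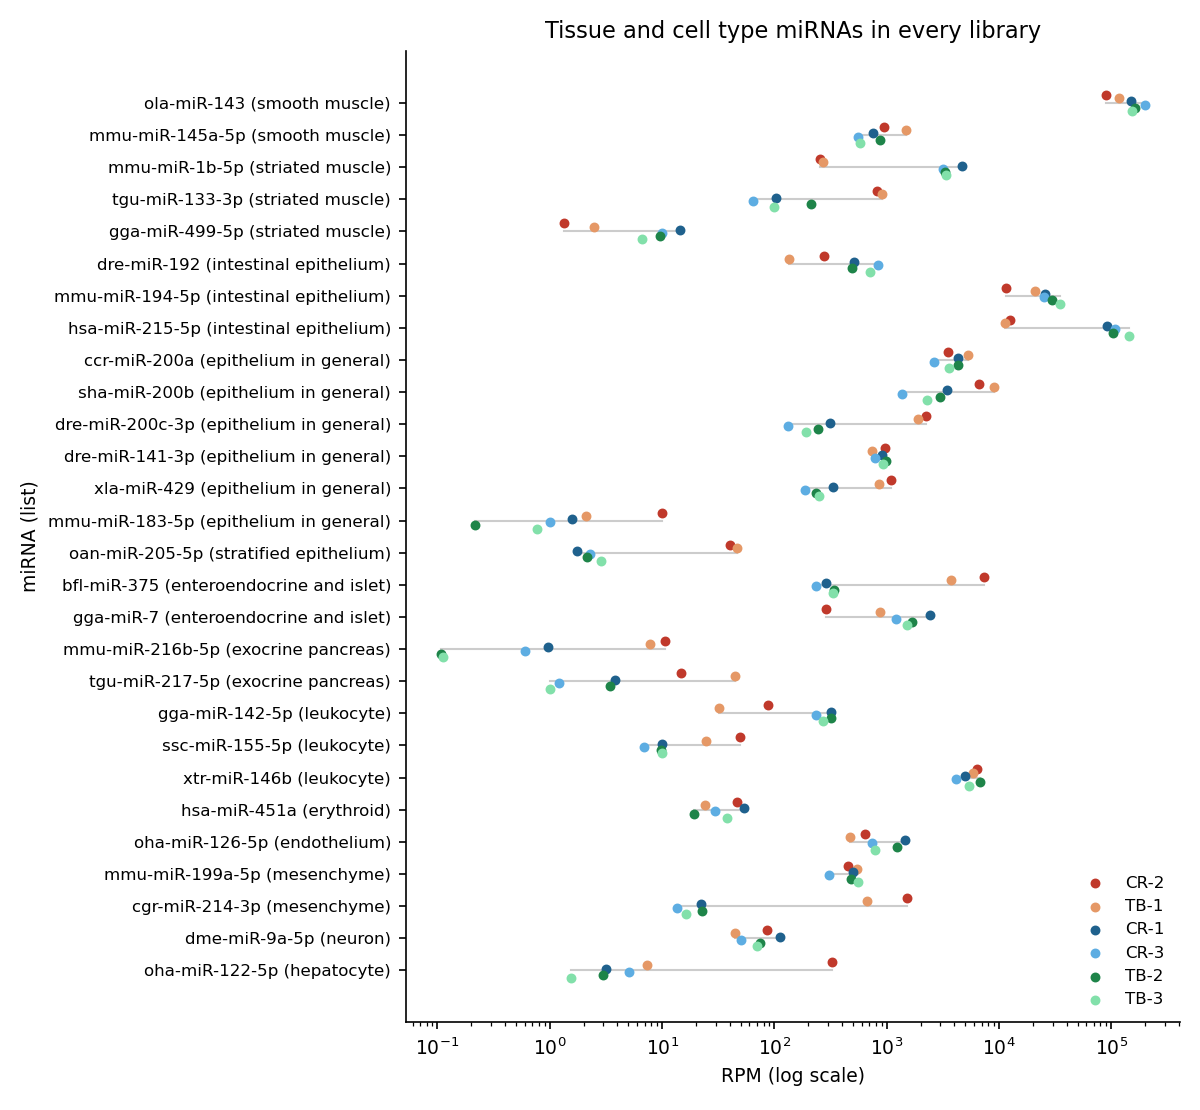
RPM on a log scale (x axis) of 28 miRNAs tied to a tissue or cell type (rows, with their list), 1 point for each library. CR-2 and TB-1 lie left of the other 4 for miR-215-5p, miR-1b-5p, miR-7 and miR-142-5p, right of them for miR-133-3p, miR-200c-3p, miR-375 and miR-214-3p, and among them for miR-141-3p, miR-146b and miR-451a.

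Among the 180 profiles, several families were lower in CR-2 and TB-1 as a block. Names with nearly equal values, such as hsa-miR-218-5p and efu-miR-218b, count as separate profiles, so profiles of a family are not independent. miR-218 was lowest, with a median shift of -3.70 over 3 profiles, and hsa-miR-218-5p had 60.0 and 35.4 RPM in CR-2 and TB-1, against 488, 811, 547 and 641 RPM in CR-1, CR-3, TB-2 and TB-3. miR-101 had a median of -3.31 over 3 profiles, and hsa-miR-101-3p had 768 and 733 RPM in CR-2 and TB-1, against 5331, 7828, 8426 and 9056 RPM in CR-1, CR-3, TB-2 and TB-3. miR-1 and miR-206 had a median of -3.30 over 4 profiles, all of them of miR-1. In each of these families every profile among the 180 was lower in both libraries than in any of the other 4. Among the 447, this held for 21.5%. All profiles of miR-218, and odi-miR-1c and cel-miR-1-3p of miR-1, reached 100 RPM through the other 4 alone. For these a lower mean in CR-2 and TB-1 was fixed by the threshold. Outside the 180, mmu-miR-101b-3p went the other way, with a shift of 3.42 (1.34 with TMM), while mmu-miR-101c had -4.35. Both names lay under the threshold of 100 RPM. As differences of mean log2(RPM + 1), which understate changes of low names, their shifts were 1.99 and -2.49. The 6 profiles of miR-142 had a median of -2.26, and these too reached 100 RPM through the other 4 alone. The 2 profiles of miR-21 had a median of -1.30, and sha-miR-21 had 35761 and 25028 RPM in CR-2 and TB-1, against 84192, 59471, 74910.1 and 82184 RPM in CR-1, CR-3, TB-2 and TB-3. miR-7 (median -1.57, 3 profiles) and miR-20a-5p (median -1.27, 2 profiles) were lower to a similar degree, and hsa-miR-3529-3p had almost the same values as gga-miR-7. The miR-20a-5p profiles likewise reached 100 RPM only through the other 4. Relatives of miR-20a outside the 180 were not lower on RPM: hsa-miR-17-5p had a shift of 0.32 and hsa-miR-106a-5p of 0.69 (-1.29 and -0.89 with TMM).

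Other families were higher as a block among the 180 profiles. hsa-miR-92a-3p, the end of the miR-17 to miR-92a cluster, had 15753 and 8089.9 RPM in CR-2 and TB-1, against 161, 114, 156 and 170.1 RPM in CR-1, CR-3, TB-2 and TB-3, a shift of 6.31. mmu-miR-181a-5p had 10773 and 8851 RPM in CR-2 and TB-1, against 253, 109, 159 and 117 RPM in CR-1, CR-3, TB-2 and TB-3, a shift of 5.94. All 8 profiles of miR-181, which are of 2 miRNAs, were above 4, those of miR-181b at 4.26 to 4.27. The 4 profiles of miR-214 had a median of 5.95, the 3 of miR-125 a median of 4.50 and the 4 of miR-375 a median of 4.43. hsa-miR-221-3p, a miRNA of vessels and dividing cells, had 2347 and 3218 RPM in CR-2 and TB-1, against 215, 80.6, 104 and 100.2 RPM in CR-1, CR-3, TB-2 and TB-3, a shift of 4.48, and the median of miR-221 and miR-222 was 4.36. cli-miR-148b-3p had a shift of 4.81, mmu-miR-128-3p of 3.97 and mmu-miR-129-5p of 4.16. The first was the only profile of miR-148 and miR-152 among the 180. Its rarer relatives hsa-miR-148a-3p and bta-miR-148d had shifts of 0.47 and 0.50 (-1.36 and -1.33 with TMM). miR-128 and miR-129 are best known from brain. In all of these every profile among the 180 was higher in both libraries than in any of the other 4, and each kept its sign with TMM. For profiles that reached 100 RPM through CR-2 and TB-1 alone, a higher mean there was fixed by the threshold. Among them were cgr-miR-214-3p, mmu-miR-125b-5p, gga-miR-181b-5p and gga-miR-222a, with means of 18.7, 85.9, 23.7 and 40.9 RPM over the other 4. Among the 447, 57.3% were higher in both.

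The highest shifts were those of names nearly without reads in the other 4 libraries. bta-miR-2898 had 2242 and 309.5 RPM in CR-2 and TB-1, against 2.28, 1.40, 2.78 and 1.22 RPM in CR-1, CR-3, TB-2 and TB-3, a shift of 9.37. cgr-miR-1260 had 2043 and 277 RPM in CR-2 and TB-1, against 3.25, 2.80, 2.68 and 1.33 RPM in CR-1, CR-3, TB-2 and TB-3, a shift of 8.85. CR-2 was several times above TB-1 for both, and the shift of CR-2 alone was 10.19 and 9.67, against 7.33 and 6.79 for TB-1 alone. The 95% Wilson interval of bta-miR-2898 was 295 to 324 RPM in TB-1, against 1.56 to 3.34 RPM in CR-1. Such intervals cover counting error only and are no support for a shift picked as the highest. gga-miR-2954, a bird miRNA of the Z chromosome known for higher levels in male chickens and zebra finches, had 1377 and 555 RPM in CR-2 and TB-1, against 19.0, 12.7, 27.8 and 21.1 RPM in CR-1, CR-3, TB-2 and TB-3, a shift of 5.58. pal-miR-9995-3p had a shift of 5.16. The names bta-miR-2898, cgr-miR-1260 and gga-miR-2954 reached 100 RPM through CR-2 and TB-1 alone, so a higher mean there was fixed by the threshold.

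Some families lay at the median of all profiles or near 0 on RPM. The 5 profiles of miR-26, which holds back cell growth, had nearly equal shifts of 1.68. hsa-miR-26a-5p is itself the median profile of the 447, so the equality with that median is no result. aca-miR-26-5p had 17513 and 18401 RPM in CR-2 and TB-1, against 10440.5, 3104, 5566 and 3372 RPM in CR-1, CR-3, TB-2 and TB-3. CR-1 was the nearest of the 4 to CR-2 and TB-1. hsa-miR-10a-5p, from the Hox gene clusters, had 4112 and 4873 RPM in CR-2 and TB-1, against 3988, 3632, 5019.6 and 4184 RPM in CR-1, CR-3, TB-2 and TB-3, a shift of 0.10 (-1.56 with TMM). Closest to 0 were the 2 profiles of miR-1388-5p (0.00), sha-miR-10a (0.08), dme-miR-10-5p (-0.06) and dre-miR-141-3p (-0.08).

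Large families were divided. In let-7, which holds back growth and marks mature cells, hsa-let-7f-5p had 3371 and 3179 RPM in CR-2 and TB-1, against 5596, 4266, 5077 and 5824 RPM in CR-1, CR-3, TB-2 and TB-3, a shift of -0.66. gga-let-7i had 6934 and 5464 RPM in CR-2 and TB-1, against 1554, 1096, 1412 and 1155 RPM in CR-1, CR-3, TB-2 and TB-3, a shift of 2.25. hsa-let-7b-5p had 3290.02 and 3351 RPM in CR-2 and TB-1, against 228, 193, 289 and 255 RPM in CR-1, CR-3, TB-2 and TB-3, a shift of 3.78. Of the 13 let-7 profiles, 5 were lower in both libraries than in the other 4 and 8 were higher. Among the 447, 21.5% were lower and 57.3% higher in this way. Some let-7 profiles have nearly equal values, such as ggo-let-7f and efu-let-7f or gga-let-7k-5p and ola-let-7e, so they are not independent. gga-let-7g-5p (1.62 on RPM, -0.07 with TMM) changed sign with the scaling. The balance within the family differed too. let-7b was close to let-7f in CR-2 and TB-1, and far rarer than let-7f in the other 4.

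The miR-30 family, abundant in epithelia, was divided in the same way. hsa-miR-30a-5p had 1688 and 2961 RPM in CR-2 and TB-1, against 5395, 5238, 6433 and 5569 RPM in CR-1, CR-3, TB-2 and TB-3, a shift of -1.28. hsa-miR-30d-5p had 20491 and 21412 RPM in CR-2 and TB-1, against 5052, 2884, 3823 and 3380.2 RPM in CR-1, CR-3, TB-2 and TB-3, a shift of 2.47. hsa-miR-30c-5p had 10901 and 13629.8 RPM in CR-2 and TB-1, against 598, 340.1, 699 and 656 RPM in CR-1, CR-3, TB-2 and TB-3, a shift of 4.42. mmu-miR-30e-5p overlapped between the sides, with a shift of -0.16. The precursor of miR-30e lies beside that of a miR-30c in vertebrates, as does that of miR-30a beside the other, and their shifts differed by 4.58 and 5.70. Both differences use hsa-miR-30c-5p, whose reads were not assigned to either precursor.

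**Figure D4:**
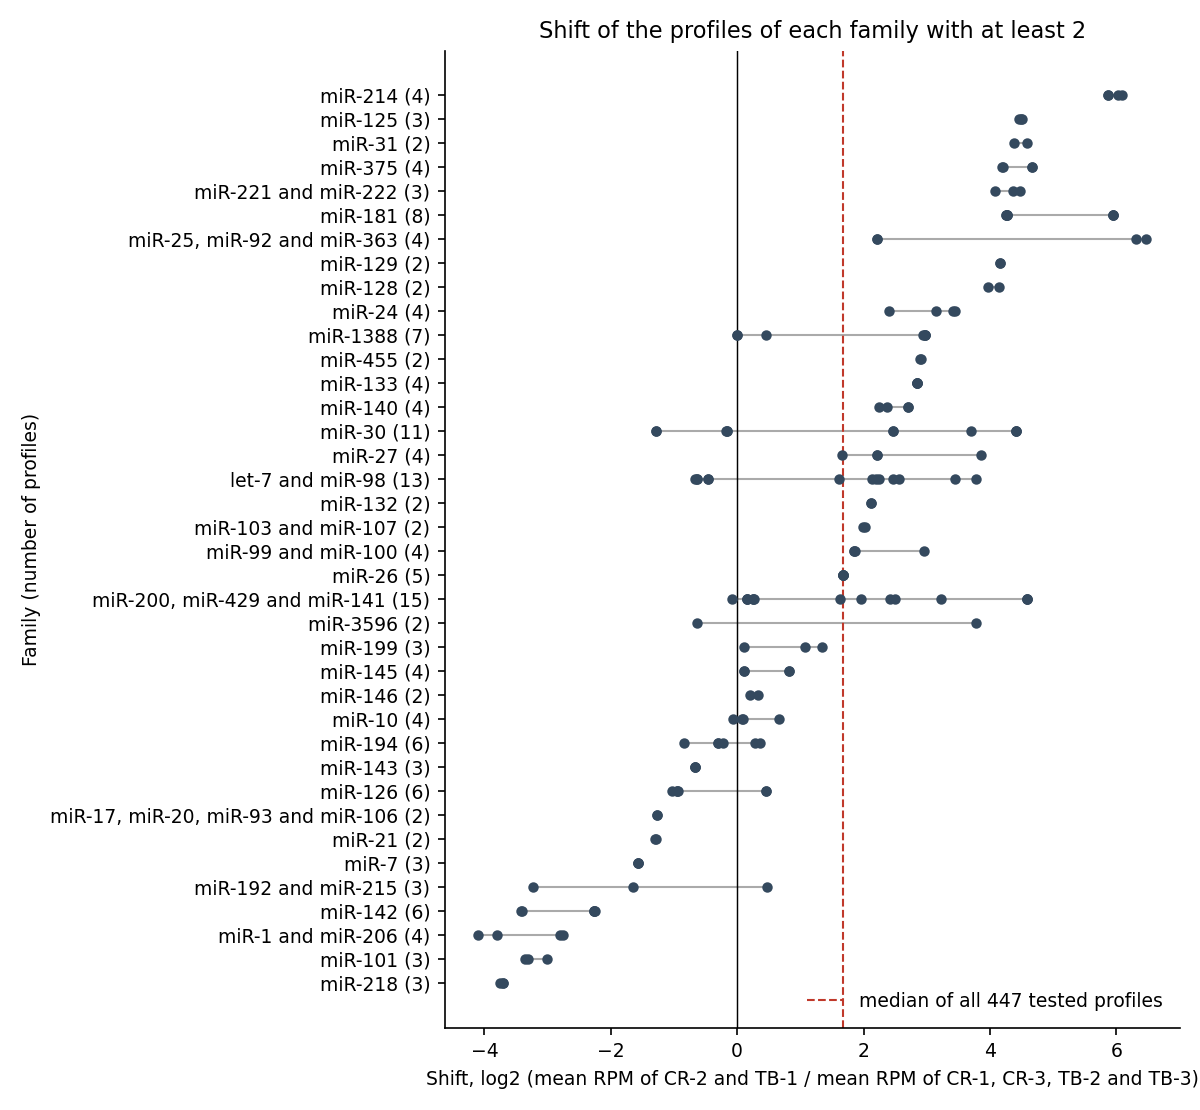
Shift (x axis, log2) of each profile in the 38 families with at least 2 profiles (rows, ordered by median), with 0 as a solid line and the median of the 447 tested profiles, 1.68, as a dashed line. miR-218, miR-101 and miR-1 lie furthest to the left and miR-214 furthest to the right by family median, while the lines of let-7, miR-30, miR-200 and miR-1388 cross from the left of the dashed line to its right.

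Genomic neighbours in vertebrates, listed after the values were seen, ranged between equal and opposite. In the miR-23, miR-27 and miR-24 cluster hsa-miR-23a-3p had a shift of 2.03, its neighbour hsa-miR-27a-3p 1.65 (-0.12 with TMM) and hsa-miR-24-3p 2.40, and other names of these miRNAs reached 3.86 (ccr-miR-27d) and 3.44 (dre-miR-24b-3p). miR-221 and miR-222 differed by 0.39. The widest was the miR-17 to miR-92a cluster, of growth-promoting miRNAs. There hsa-miR-19b-3p had 4.66 and 12.3 RPM in CR-2 and TB-1, against 56.4 to 117 RPM in the other 4, a shift of -3.42. gga-miR-18a-5p had 97.3 and 205 RPM in CR-2 and TB-1, against 6.67 to 8.67 RPM in the other 4, a shift of 4.32. aca-miR-19a-3p had 0.666 and 0.526 RPM in CR-2 and TB-1, against 12.3 to 25.6 RPM in the other 4. dre-miR-17a-5p overlapped between the sides (0.32). The shift of hsa-miR-20a-5p was -1.27 and that of hsa-miR-92a-3p 6.31. Reads were not assigned to precursors, so a mature name may not stand for this cluster alone.

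The named arms of a miRNA often disagreed. Pairs were matched by name across species prefixes and reads were not assigned to precursors, so a pair may not come from 1 hairpin. Of 43 name pairs with both arms tested, 5 were left out after the values were seen. Under miR-126 both arms carried nearly the same values, and miR-145, miR-1388b, miR-210b and miR-3120 each held an arm with values close to those of miR-145a, miR-1388, miR-210 and miR-214, the last 3 with the arms named the other way round. Of the remaining 38 pairs, 26 had a mean of at least 10 RPM for each arm. In 7 of these both arms were above 1, in 2 both were below -1 and in 7 the arms had opposite signs. The 2 below -1 were miR-142 and miR-1b, and the names of the latter may not belong to 1 hairpin. The shifts of the arms differed by more than 1 in 18 of the 26, with a median difference of 1.30 in size. The 5p arm had the higher shift in 8. Of the arm differences past 1, 0 changed sign under the alternatives tried. Scaling multiplies both arms of a library alike, so TMM could hardly change these differences and does not bear on them.

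For miR-215 the ratio of 5p to 3p was 27.4 in CR-2 and 18.4 in TB-1, against 323, 389, 225 and 279 in CR-1, CR-3, TB-2 and TB-3. aca-miR-215-3p had 457 and 608 RPM in CR-2 and TB-1, against 283, 275, 459 and 516 RPM in CR-1, CR-3, TB-2 and TB-3, with overlap and a shift of 0.47 (-1.16 with TMM), while the 5p arm was lower. miR-21 was alike, with a shift of -1.29 for the 5p arm and 2.78 for the rare 3p arm. The widest gap belonged to miR-221, where the 5p arm (mean 34.8 RPM) had a shift of -1.84 and the 3p arm 4.48, and the ratio of 5p to 3p was 0.00454 and 0.00463 in CR-2 and TB-1, against 0.230 to 0.504 in the other 4. miR-181a went the other way, with 5.94 for the 5p arm and 1.44 for the 3p arm. miR-143 had 2.52 for its rare 5p arm and -0.67 for its 3p arm. The arms shared a direction in miR-142 (-2.26 and -3.42) and in miR-200a (0.15 and 0.27). So did the miR-1b names (-3.79 and -4.10), which come from mouse and chicken. Other pairs mix species too, such as hsa-miR-215-5p with aca-miR-215-3p and mmu-miR-221-5p with hsa-miR-221-3p. The ratio of the miR-1b names was 3.26 in CR-2 and between 2.01 and 2.11 in the others, and they too may not be arms of 1 hairpin.

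**Figure D5:**
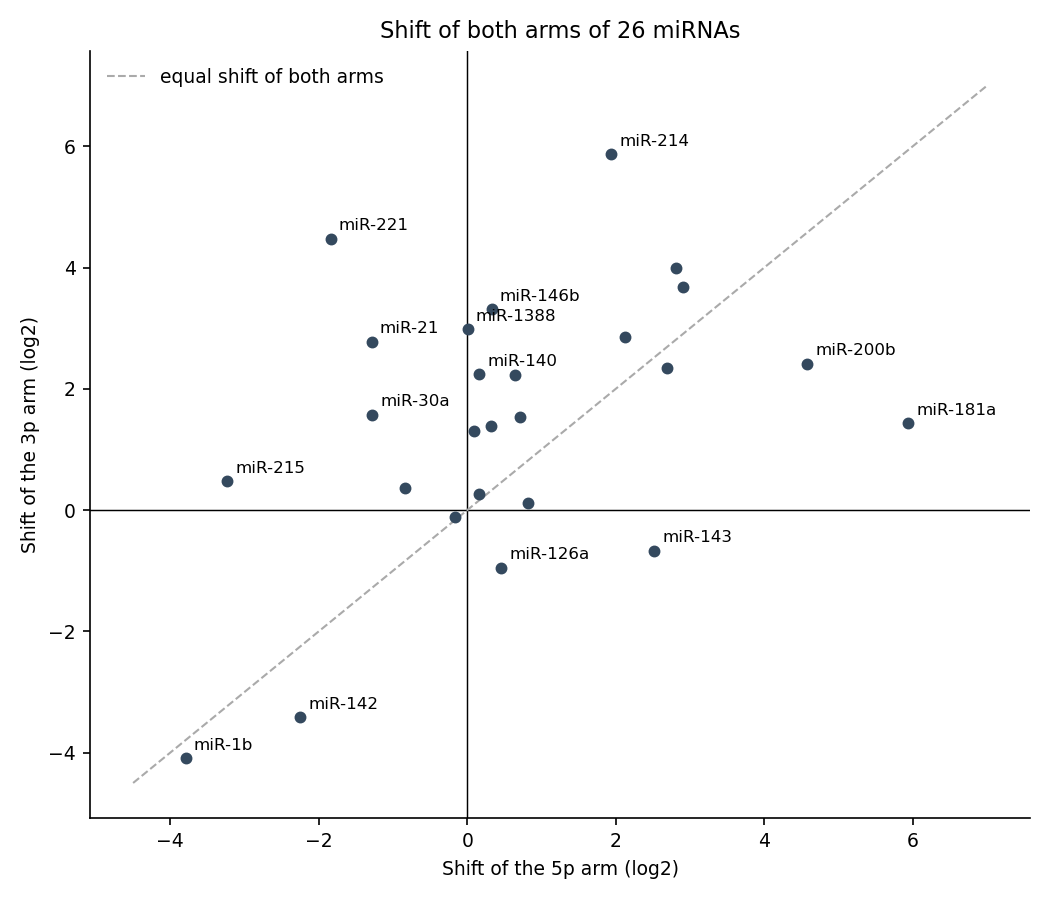
Shift of the 3p arm (y axis, log2) against that of the 5p arm (x axis, log2) for 26 miRNAs with both arms at a mean of at least 10 RPM, with the line of equal shift dashed. miR-221 and miR-215 lie far above the line, miR-181a far below it, and miR-1b and miR-142 at the lower left.

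Among the 180 profiles the named arm gave no clear division. Of 69 profiles named 5p, 36 were above 1 and 13 below -1 (median 1.68). Of 52 named 3p, 34 were above 1 and 7 below -1 (median 2.23). The 59 without a named arm had 34 above 1 and 9 below -1 (median 1.68).

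CR-2 and TB-1 were not copies of each other. CR-2 was more than 2-fold above TB-1 in 32 profiles and more than 2-fold below it in 4, and the median log2 ratio of CR-2 to TB-1 was 0.22. Profiles with a shift above 1 made up 48.6% of the summed RPM of the 180 in CR-2 and 40.6% in TB-1, against 10.1%, 4.22%, 6.98% and 5.21% in CR-1, CR-3, TB-2 and TB-3. Those below -1 made up 10.8% and 8.35% in CR-2 and TB-1, against 31.9%, 27.7%, 31.4% and 36.7%. These sums describe the choice of the profiles and are no further support for it.

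The other 4 libraries had an order of their own. Their median coefficient of variation was 26.2%, and the highest of the 4 was within 2-fold of the lowest for 102 of the 180 profiles. Among the 104 profiles above 1, CR-1 was the highest of the 4 in 63 and CR-3 the lowest in 88. Among the 29 profiles below -1, CR-1 was the highest of the 4 in 13 and the lowest in 9, and CR-3 was the lowest in 17 and the highest in 4. CR-3 was thus most often the lowest of the 4 in both sets.

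The rearing groups themselves were compared with limma. Of 662 names tested for CR over TB with limma on log2(RPM + 1), 0 (0.0%) passed an adjusted p of 0.05 and 0 an unadjusted p of 0.05, and so did 0 of the 180 profiles. edgeR with TMM, edgeR with RLE and DESeq2 each gave 0 names by adjusted p and 5 by unadjusted p. The median standard error of the log2 fold change over the 180 was 1.01. Without CR-2 and TB-1, which leaves 2 libraries a group, it was 0.425, and limma gave 24 names (3.63%) with an unadjusted p under 0.05, 3 higher and 21 lower in CR, with a lowest adjusted p of 0.631. Of these, 4 were among the 180: gga-let-7l-5p, the 2 profiles of miR-1388-5p and gga-miR-1388b-3p, all lower in CR. That fit leaves out 2 libraries picked from these same values, so its smaller standard error and its p-values follow in part from the choice and are given as a description.

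Over all 6 libraries the 3 CR libraries lay below the 3 TB libraries in 5 of the 180 profiles and above them in 0, beside 1.57% below and 0.895% above among the 447. These 5 were bta-miR-194b, aca-miR-215-3p and the miR-10 profiles dme-miR-10-5p, sha-miR-10a and hsa-miR-10a-5p, and each had a shift within 2-fold of 0. hsa-miR-10a-5p had 3988, 4112 and 3632 RPM in CR-1, CR-2 and CR-3, against 4873, 5019.6 and 4184 RPM in TB-1, TB-2 and TB-3. None of them passed the limma test.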

How the data were processed

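Small RNA was measured in 6 libraries of duck duodenum, 3 CR and 3 TB, made from gel-selected RNA of 20–30 nt per the labels. Each library has its own deposited table of 1568 names, in which the authors give RPM under a header reading tpm. Every library sums to 1000000, with no correction for length, whereas their methods name FPKM. All values (100%) were whole multiples of 1 read to within 0.01 read, which gave back the reads of each library. Aligner, build and read filter are not given in the sources used here.

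Names with equal values in all libraries were kept once. The shift was taken from group means, with no test, since RPM values of these libraries chose the split. The members and lists (marker and family lists included) were chosen with earlier results of these data known. CR was tested over TB with limma 3.58.1 (trend) on log2(RPM + 1), which understates changes of low names, for the 662 names that reached 10 reads in 3 or more libraries, with Benjamini-Hochberg adjustment. edgeR 4.0.16 and DESeq2 1.42.0 on the recovered reads were alternatives, and code was tested on simulated data. Named profiles were the 10 highest over CR-1, CR-3, TB-2 and TB-3, the 12 highest and 12 lowest shifts, the 5 nearest 0, the lists, arm pairs and the 3 profiles on each side of 100 RPM, of which those that show a pattern are printed. Software comprised R 4.3.3 and Python 3.11.15 (matplotlib 3.10.9, pandas 2.3.3, numpy 2.4.6, scipy 1.17.1). Sequences were not analysed here.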

Additional observations from a re-analysis of the deposited data

How the results depend on the processing

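With TMM factors 63 of the 180 profiles were above 1 and 74 below -1, with a median shift of 0.080, against 104, 29 and 1.86 on RPM. A mean of at least 10 RPM gave 202 above and 50 below, and a mean of at least 1000 RPM gave 44 and 14. A mean of at least 100 RPM over CR-1, CR-3, TB-2 and TB-3 alone gave 64 above and a median of 0.45. Leaving out profiles within 10% of a more abundant one, an alternative chosen after seeing the data, gave 66 and 16 of 111. Leaving out each library in turn gave 102 to 104 above, 27 to 32 below and medians of 1.71 to 2.11. Means of logs, RPM over distinct profiles and 1 profile per miRNA name stayed within 1.5 times for both counts. A positive shift turned negative with TMM in 31 of the 180 profiles, 6 of them above 1. Among the profiles chosen for naming with a shift above 1, and 2 family medians, these were aca-miR-99b-5p (-0.088), cpi-miR-10a-3p (-0.37), gga-let-7g-5p (-0.074), gga-miR-106-3p (-0.12), gga-miR-146c-3p (-0.40), gga-miR-199-3p (-0.64, also the median of the miR-199 family), gga-miR-99a-3p (-0.32), hsa-miR-17-3p (-0.34), hsa-miR-181a-3p (-0.35), hsa-miR-27a-3p (-0.12), hsa-miR-30a-3p (-0.25), mmu-miR-27b-5p (-0.55), oni-miR-199c (-0.40), pte-miR-100a-5p (-0.72) and the median of the miR-3596 family (-0.13). bta-miR-3604 (-0.64) and gga-miR-1662 (-0.20) complete the 6. The miR-3596 median joins bta-miR-3596, with nearly the values of hsa-let-7b-5p, and rno-miR-3596d, with nearly those of let-7f names. Of 31 arm pairs, repeats included, 20 differed by more than 1 and 7 had opposite signs, beside 18 and 7 of 26 without repeats. The shift of pte-miR-100a-5p was -0.16 without CR-2 and 1.96 without TB-1.

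For CR against TB, limma gave 0 names by adjusted p in every fit run, and so did edgeR and DESeq2. By unadjusted p under 0.05 limma gave 0, edgeR with TMM 5, edgeR with RLE 5 and DESeq2 5. A pseudocount of 10 gave 1, no filter on low values 4 and leaving out each library 0 each time. Without both CR-2 and TB-1 limma gave 24 names and 4 of the 180 profiles. With a replicate block the count was 0 by adjusted and 0 by unadjusted p. Deviations of same-numbered libraries from their group means had correlations of -0.80, -0.91 and 0.91. CR-2 and TB-1 carry different numbers, so these signs follow from the split and cannot show whether the numbers pair the libraries. Depth limits the rarest profiles most, at 11 reads for the lowest.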
